A study of Rattus norvegicus with 6 samples.

Results

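The striatum of rats that had been touched lightly was compared with the striatum of rats that had received no stimulus, a pair that no single array of the study sets against each other. Both groups were hybridised against tickled rats on their own two-colour Agilent array, and each feature's log2 ratio of tickled over light touch was subtracted from its log2 ratio of tickled over no stimulus, which leaves light touch over no stimulus. Of 44290 features on the array, 26802 had a value on both striatal arrays and 16266 of these carried 1 gene symbol. A gene's value is the median of its features' differences, which gave 10705 genes of the 14871 symbols on the array. The subtraction used 2 of the study's 6 arrays, 1 for each comparator.

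All animals were male Wistar rats, an outbred laboratory strain, kept 1 to a cage from 21 days of age with screens between the cages, and all were 60 days old at sampling. Tickled rats were handled in a way that mimics rough play and draws 50 kHz ultrasonic calls, light-touch rats were the handling control, and no-stimulus rats were not handled in this way. Stimulation was given once each weekday for 4 weeks in alternating 15 s periods of rest and stimulation. Each condition had 4 animals and each labelling 500 ng of RNA; the labels leave unsaid whether the RNA on an array was pooled over animals. The tickled RNA was in Cy5 and the comparator RNA in Cy3 on both arrays, so a dye effect that is the same on both cancels in the difference.

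The comparison asks how the striatum of rats handled gently each weekday differed from that of rats left alone. It holds only if both arrays carry the same tickled extract, which the sources used here do not state. There were 0 replicates, so no test was possible, and genes are counted by size: 1.5-fold or more, a log2 difference of at least 0.58 in size, and 2-fold or more. A fold holds for base 2; read as natural logs, which the values do not settle, all values would grow by a factor of 1.44. The error at hand is the disagreement between features of 1 gene, with a median SD of 0.099 over the 3799 genes with 2 or more features. Both arrays were centred near 0, with medians of 0.0010 and 0.0027 over all features, and the no-stimulus array was the wider, with a median absolute deviation of 0.13 against 0.087.

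The striatum is the input station of the basal ganglia, where medium spiny neurons, inhibitory projection cells, integrate glutamate input from cortex and thalamus with dopamine from the midbrain, and it takes part in reward, movement and habit. It lies against the lateral ventricle, whose wall is lined by ependymal cells that beat motile cilia and which in adult rodents also holds dividing progenitors of new neurons. Gentle touch reaches the brain through low-threshold afferents of the skin.

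The labels call the tissue striatum, while their extraction text names hypothalamus for every sample, so both marker lists were looked up. All 30 medium spiny neuron markers on the array had a value in striatum, against 21 in salivary glands and 10 in leukocytes of the same study. Of 24 hypothalamic markers on the array, 17 had a value. The blank ones included Agrp, Crh, Otp and Sim1, and those with a value included Avp, Oxt, Hcrt, Pomc and Pmch. Of 23 cortical glutamatergic markers on the array, 21 had a value too. Ratios hold no level and the rule for blank values is not given, so these counts cannot tell which tissue was used.

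Light touch and no stimulus lay close in striatum. The median gene differed by -0.02, the quartiles of all genes were -0.11 and 0.07, and 95% of them between -0.37 and 0.32. With light touch, 35 genes were 1.5-fold or more higher, 0.327% of all, and 64 were 1.5-fold or more lower, 0.598%, together 99 genes or 0.925%. Only 5 genes were 2-fold apart: Tjp1, Grifin and the olfactory receptor gene Or6c6i were higher, and Lmnb1 and Aspm lower. Genes just past 1.5-fold were Ptprh at 0.59 and Wdr19 at -0.59, and just short of it lay Klhl42 and Ube2c at -0.58 each. In the plot of both striatal arrays the bulk of genes forms a cloud around 0 and the 99 genes lie outside the band between the dashed lines.

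**Figure D1:**
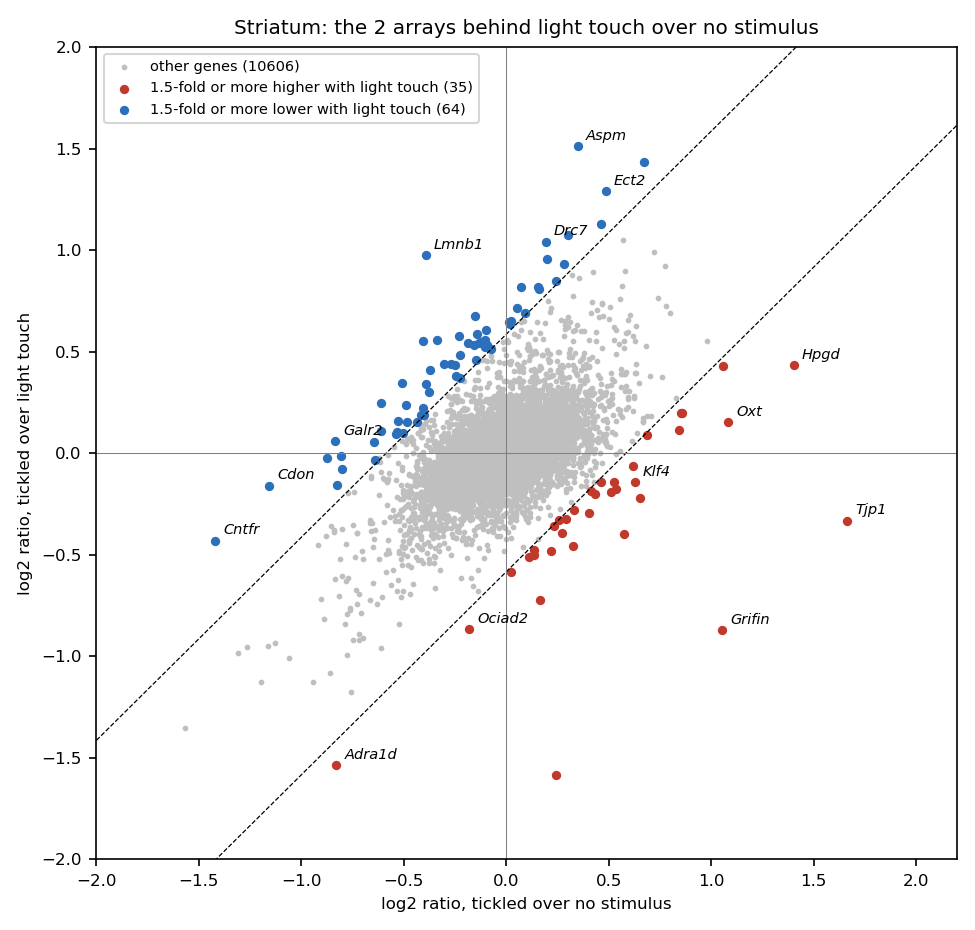
Each point is 1 of 10705 genes in striatum, with its log2 ratio of tickled over no stimulus on the horizontal axis and of tickled over light touch on the vertical axis. Dashed lines mark a 1.5-fold difference between light touch and no stimulus; the 35 genes higher with light touch (red) lie below and to the right, and the 64 lower (blue) above and to the left.

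Most of these 99 genes rest on 1 feature. They include 94 genes with a single feature, 94.9%, whereas 64.5% of all genes have only 1. Of single-feature genes 1.36% were 1.5-fold apart, 0.449% higher and 0.912% lower, against 0.132% of genes with several features. The 5 with several features were Tjp1, Hnrnpul2, Rpl9, Ptp4a3 and Drc12, and in Rpl9 and Ptp4a3 the features ranged from 0.08 to 0.69 and from 0.07 to 1.17.

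Among the genes higher with light touch, Tjp1, which encodes the scaffold protein ZO-1 of tight junctions, stood highest. Its 4 features gave 1.64, 1.68, 2.21 and 2.33, a median of 1.95 with an SD of 0.35 between features, or 3.85-fold. Relative to no stimulus the tickled sample stood at 1.66, and the ratio of tickled over light touch was -0.33. Both handled samples thus lay well above the unhandled one, whose reading both values share. For genes with several features a median of differences is not the difference of medians, so these 3 values need not add up. The other 20 valued members of the tight junction list lay between -0.15 and 0.23, with Ocln (occludin) at 0.14, Cldn12 at -0.15 and Afdn (afadin) at 0.23.

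Grifin, a galectin relative known from the lens, was 1.93 higher with light touch and 1.05 higher with tickling, on 1 feature. Ildr1, a protein of tricellular junctions, was 0.97 higher with light touch and 0.58 with tickling. Hpgd, the dehydrogenase that inactivates prostaglandins, was 0.97 higher with light touch and 1.40 with tickling. The other 12 valued members of the prostaglandin list lay between -0.22 and 0.37, with the synthase Ptges at 0.37 and Ptgs2 (cyclooxygenase-2) at -0.15.

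Oxt, the gene of the neuropeptide oxytocin, was 0.93 higher with light touch and 1.08 higher with tickling than with no stimulus, on 1 feature. The same difference in the salivary glands was 1.32. The related gene Avp (vasopressin) was 0.06 higher with light touch and 0.78 with tickling, and of the other hypothalamic markers Hcrt stood at 0.01, Pomc at 0.09 and Pmch at -0.29. The 17 valued hypothalamic markers had a median of -0.07, 7 above 0 and 10 below, with Oxt the only one past 1.5-fold. Agrp, Crh, Otp and Sim1 were among the markers without a value. The part of hypothalamic tissue in the Oxt value was not tested.

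Of the remaining genes higher with light touch, Klf4, a Krüppel-like transcription factor that is also activity-regulated, was 0.77 higher with light touch and 0.63 with tickling. Hira, a chaperone of histone H3.3, was 0.87 and 0.65 higher in the same order, and Gnb3, a G protein beta subunit, 0.71 and 0.54. Rab27a, a GTPase of secretory granules, was 0.70 and 0.51 higher, and Poglut3, a glucosyltransferase of secreted proteins, 0.73 and 0.84. In all 5 genes both handled samples lay above the no-stimulus sample, whose reading both values share.

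In a second pattern the light-touch sample lay above both others, on the reading of 1 light-touch array. Fblim1, a filamin-binding protein of cell adhesions, was 0.89 higher with light touch but 0.17 higher with tickling. Ociad2 was 0.69 higher with light touch while tickling lay at -0.18. Adra1d, the alpha-1D adrenergic receptor, was 0.71 higher with light touch and -0.83 with tickling, with no stimulus between them, and its ratio of tickled over light touch was -1.54. Adra1b, the other alpha-1 receptor with a value, was 0.47 higher with light touch and -0.01 with tickling, and the alpha-2 and beta-1 receptors lay between -0.10 and -0.05 with light touch.

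Lmnb1, which encodes lamin B1 of the nuclear lamina, was the lowest gene with light touch, at -1.37 or 2.58-fold lower, while the tickled sample stood at -0.39. The other valued genes of the nuclear envelope list lay between -0.22 and 0.19. Aspm, a spindle pole protein, was -1.16 with light touch and 0.35 with tickling, and Ect2, which starts the cleavage furrow, -0.81 and 0.48. In the last 2 genes the tickled sample lay above no stimulus and light touch below it.

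Other genes were lower in both handled samples. Cntfr, the receptor subunit that binds ciliary neurotrophic factor, was -0.99 with light touch and -1.42 with tickling. Cdon, a cell surface co-receptor of hedgehog signalling, was just short of 2-fold lower with light touch and -1.16 with tickling. Galr2, a receptor of the neuropeptide galanin, was -0.89 and -0.83, and Glra1, the glycine receptor alpha-1 subunit, -0.86 and -0.61. Wdr82, a subunit of a histone H3 methyltransferase complex, was -0.85 and -0.87, and Gpd2, the mitochondrial glycerol-3-phosphate dehydrogenase, -0.79 and -0.80. In all 6 genes both handled samples lay below the no-stimulus sample. Both values share that sample's reading, so they are not separate measurements of a difference. The ratio of tickled over light touch was -0.03 for Wdr82 and -0.01 for Gpd2.

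Between these patterns stood Chd5, a chromatin remodeller of neurons, at -0.96 with light touch and -0.41 with tickling, and the riboflavin transporter gene Slc52a3 at -0.85 and -0.51. Slc44a4, a transporter of the choline transporter-like family, was -0.90 and -0.34 in striatum, and its light-touch difference in the salivary glands was -1.49. The plot of the genes furthest apart sets the 3 samples of each gene side by side.

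**Figure D2:**
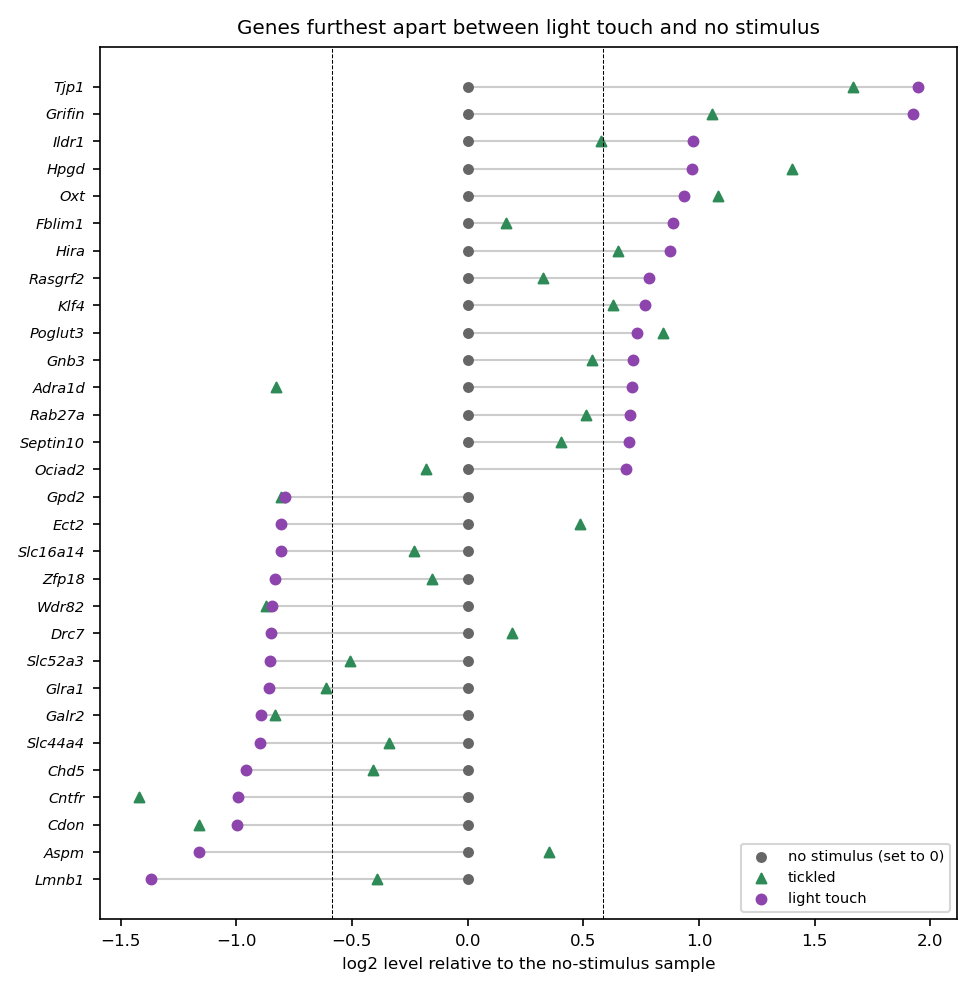
Shown are the 15 genes furthest above and the 15 furthest below 0. Olfactory receptor genes such as Or6c6i and genes without a proper name are left out. The horizontal axis gives the log2 level relative to no stimulus (grey, set to 0) of the tickled (green triangle) and light-touch (purple) samples. Tickled values come from 1 array, and light-touch values are the difference of both striatal arrays. Dashed lines mark 1.5-fold; in Tjp1, Hpgd, Oxt, Cntfr, Cdon and Galr2 both handled samples lie on the same side, whereas in Adra1d, Ociad2, Aspm, Ect2 and Drc7 the tickled sample lies across 0 from light touch.

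The tickled sample was placed on the line from no stimulus to light touch for each of the 99 genes. Beyond 0.75 of the way counted as nearer light touch, also past light touch (Ghrl at 1.69). Under 0.25 of the way counted as nearer no stimulus, also on its far side (Adra1d at -1.17). The tickled sample lay nearer light touch in 28 genes, nearer no stimulus in 36 and between in 35. Among the 35 higher genes these numbers were 13, 8 and 14, and among the 64 lower genes 15, 28 and 21. The place depends on the spread of the arrays: with both arrays scaled to 1 spread, 11 genes lay nearer light touch, 89 nearer no stimulus and 34 between, of 41 higher and 93 lower genes.

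Among genes with 2 or more features that all share a sign, Tjp1 was followed by smaller differences, each with a spread between features, which is not an error between samples. Hnrnpul2, a nuclear ribonucleoprotein, was 0.60 higher with light touch, its features at 0.46 and 0.75. Anks1b, a scaffold of the postsynaptic density, was 0.54 higher with features at 0.41 and 0.67, and tickling lay at 0.53. Cnr1, the CB1 cannabinoid receptor that is abundant on medium spiny neurons, was 0.40 higher, with 4 features between 0.32 and 0.42 and an SD of 0.05. The tickled sample stood 0.27 above no stimulus for Cnr1. Each of its 4 features was higher in both handled samples against the shared no-stimulus reading.

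On the lower side, Drc12 was at -0.76, its features at -0.94 and -0.57. Prkd1, protein kinase D1, was at -0.57 with features at -0.58 and -0.55, and tickling at -0.58. Htr2c, the serotonin 2C receptor, was at -0.55 with features at -0.67 and -0.42, and tickling at -0.47. Irs2, an adaptor of insulin signalling, was at -0.51 with 3 features from -0.66 to -0.40, and tickling at -0.62. Top2a, the topoisomerase of dividing cells, was at -0.55 with features at -0.65 and -0.46, and tickling at 0.32. Prkd1, Htr2c and Irs2 were thus low in both handled samples against the shared no-stimulus reading, and Top2a only in the light-touch sample.

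Genes of the cell cycle and mitosis held the highest count past 1.5-fold of the 44 lists. Of 55 members 39 had a value, 8 were 1.5-fold or more lower with light touch and 0 higher. Of all genes 0.598% were that much lower, and of single-feature genes, as all 8 were, 0.912%. The list's median was -0.13 against -0.02 for all genes, with 27 members below 0 and 12 above (56.2% of all genes were below 0). The list was drawn up with Lmnb1, Aspm, Ect2, Cdk1, Top2a and Kif22 already known from these arrays, so their direction is no independent evidence. Without these 6 members, 33 had a value, 4 were 1.5-fold or more lower, 0 higher, and the median was -0.12.

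The 8 genes were Lmnb1, Aspm and Ect2, named above, with Nuf2 at -0.65, Cdk1 at -0.65, Spc25 at -0.63, Mcm3 at -0.63 and Mki67 at -0.62, all on 1 feature. Nuf2 and Spc25 are subunits of the NDC80 complex that ties kinetochores to microtubules, Cdk1 is the kinase of mitotic entry, Mcm3 is part of the replicative helicase and Mki67 is the Ki-67 proliferation antigen. Their tickled values were 0.16 for Nuf2, 0.28 for Cdk1, -0.10 for Spc25, 0.02 for Mcm3 and -0.25 for Mki67. In 6 of the 8 genes the tickled sample lay nearer no stimulus, in 2 between and in 0 nearer light touch. The same 2 arrays picked these genes and gave this place. Light touch was read on 1 array, so whether that sample stood apart was not tested.

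Close to the threshold lay Ube2c, a ubiquitin enzyme of mitotic exit, at -0.58, Top2a at -0.55 and Aurkb (Aurora B kinase) at -0.53, with Ccnb1 at -0.35 and Aurka at -0.34. Other members went the other way: Ccnb2 (cyclin B2) was 0.48 higher, Melk 0.36 and Gmnn (geminin) 0.34, and the tickled sample was as high, at 0.50, 0.39 and 0.41. Grouped after the values were seen, 14 members of replication licensing and S phase had a median of -0.02, 7 above 0 and 7 below, with Mcm3 the 1 past 1.5-fold, whereas 8 kinetochore and spindle members had a median of -0.17, 2 above 0 and 6 below, with 3 past 1.5-fold. This difference between subgroups was not tested. The 11 members with 2 or more features had a median of -0.09, 5 above 0 and 6 below. With both arrays scaled to 1 spread 11 members were 1.5-fold or more lower, and after subtracting the other tissues' difference 4 were and the list's median was 0.04.

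The same difference in the salivary glands, where 4.7% of 10341 genes were 1.5-fold apart either way, had a median of -0.33 over 53 valued cell cycle genes, 49 of them below 0. In leukocytes, where 9.21% of 5801 genes were that far apart, the median was 0.15 over 17 genes, 6 below 0. Among the 8 striatal genes, Lmnb1 stood in the salivary glands at -0.58, Spc25 at -0.55, Cdk1 at -0.48 and Mki67 at -0.39. In the same glands Aspm was at -0.33, Nuf2 at -0.32, Mcm3 at -0.27 and Ect2 at -0.24. In leukocytes Cdk1 was at 0.28 and Mcm3 at -0.21, and the others had no value. The tissues come from the same study, and whether they come from the same animals was not analysed here.

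Promoters of dividing-cell genes commonly carry the CHR element, with TTTGAA at its core, and CCAAT boxes bound by NF-Y, so both were searched on both strands of the 300 bases from 250 before to 50 after the start of each gene in the RefSeq promoter table of build GRCr8. The motifs were chosen after the values had been seen. TTTGAA was present in 7 of the 8 genes, in 18 of the 30 valued list members with a promoter in the table and in 11.4% of 8874 promoters of genes valued in striatum (18.1% of all 27457). CCAAT was present in 7 of the 8, in 23 of the 30 and in 37.7% of the promoters of valued genes. Shown are 4 promoters that hold both, in the direction of the gene, with both motifs or their reverse complements in capitals. Aspm lies at chr13:53625334-53625633 on the plus strand, Ect2 at chr2:111966577-111966876 on the minus strand, Cdk1 at chr20:19265043-19265342 on the plus strand and Spc25 at chr3:74396669-74396968 on the minus strand.
Aspm: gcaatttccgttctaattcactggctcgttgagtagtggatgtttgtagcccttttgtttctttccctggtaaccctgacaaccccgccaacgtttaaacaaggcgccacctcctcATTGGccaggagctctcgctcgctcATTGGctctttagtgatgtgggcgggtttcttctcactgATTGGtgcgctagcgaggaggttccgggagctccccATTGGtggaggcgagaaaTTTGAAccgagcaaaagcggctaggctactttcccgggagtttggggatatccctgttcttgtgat
Ect2: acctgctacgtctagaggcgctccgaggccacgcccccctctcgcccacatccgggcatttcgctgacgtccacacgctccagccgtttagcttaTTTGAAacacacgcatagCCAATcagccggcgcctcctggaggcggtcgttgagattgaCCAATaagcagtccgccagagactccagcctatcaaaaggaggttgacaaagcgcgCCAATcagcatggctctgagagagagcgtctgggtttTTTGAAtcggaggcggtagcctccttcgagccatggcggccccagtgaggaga
Cdk1: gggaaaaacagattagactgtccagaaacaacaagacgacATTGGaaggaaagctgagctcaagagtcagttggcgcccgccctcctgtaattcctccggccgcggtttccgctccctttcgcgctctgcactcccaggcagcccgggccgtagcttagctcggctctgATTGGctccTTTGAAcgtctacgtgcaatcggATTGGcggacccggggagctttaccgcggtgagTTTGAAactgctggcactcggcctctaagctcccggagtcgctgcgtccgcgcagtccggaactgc
Spc25: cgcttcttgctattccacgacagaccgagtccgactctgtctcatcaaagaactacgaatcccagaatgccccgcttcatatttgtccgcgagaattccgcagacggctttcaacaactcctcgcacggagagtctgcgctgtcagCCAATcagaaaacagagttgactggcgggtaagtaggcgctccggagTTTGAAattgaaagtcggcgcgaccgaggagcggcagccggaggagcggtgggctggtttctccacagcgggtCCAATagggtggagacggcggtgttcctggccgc
Aspm held 1 TTTGAA and 4 CCAAT, Ect2 and Cdk1 2 and 3 each, and Spc25 1 and 2. Of the others, Nuf2 held TTTGAA without CCAAT, and Mcm3 CCAAT without TTTGAA. A match of letters is a description and not a bound site.

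Genes of ependymal cells and motile cilia were the list with the lowest median, -0.27. Of 30 members 15 had a value, 13 below 0 and 2 above, 3 were 1.5-fold or more lower and 0 higher, where 0.598% of all genes and 0.912% of single-feature genes were that much lower. These were Rsph1, a radial spoke head protein, at -0.73, Tmem212, an ependymal marker, at -0.66, and Foxj1, the transcription factor that switches on motile cilia genes, at -0.61. In the tickled sample they stood at -0.19, 0.15 and 0.02. For Tmem212 and Foxj1 the tickled sample thus again lay nearer no stimulus, by the same 2 arrays that picked them. Tekt1, a tektin of ciliary microtubules, was at -0.55 and Dnai4, a dynein chain, at -0.54.

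Mlf1 was at -0.27 with light touch and 0.72 with tickling. The 2 members above 0 were Rsph9 at 0.21, with features from -0.19 to 0.62, and Tppp3 at 0.09. Features of Cfap126 ranged from -0.50 to 0.48, so its median of -0.29 has little weight. Outside the list, Drc7 was at -0.85 and Drc12 at -0.76, both parts of the nexin-dynein regulatory complex of motile cilia. Drc7 stood at 0.19 in the tickled sample and Drc12 at 0.20. Few members had a value elsewhere, 8 in salivary glands, where their median was 0.10, and 2 in leukocytes; Rsph1, Tmem212 and Foxj1 had none, so subtracting the other tissues' difference leaves these 3 out. The 1 member that is 1.5-fold lower after that subtraction is Tppp3, which stood at 0.09 in striatum and 1.75 in leukocytes.

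Genes of neural progenitors and new neurons were 0 times past 1.5-fold. Beside 56.2% of all genes, 15 of 16 valued members were below 0. Their median of -0.09 lay inside the quartiles of all genes, -0.11 and 0.07. The lowest were Igfbpl1 at -0.31, Dcx (doublecortin of migrating young neurons) at -0.29 and Dlx2 at -0.24, and the stem cell factor Sox2 was at -0.02. The cell cycle, cilia and progenitor lists share 0 members. Markers of the choroid plexus, which lies in the same ventricle, and of the meninges were largely blank: 9 of 21 on the array had a value and Ttr had none. The valued members had a median of 0.11, 5 above 0 and 4 below, and were split. Sostdc1 was at -0.42 with light touch and 0.02 with tickling, and Folr1 at -0.32 and 0.28. Igf2 was at 0.37 and 0.59, and Tbx18 at 0.34 and 0.20. In bulk RNA fewer cells of a type and less RNA per cell cannot be told apart. The plot of these 3 lists shows light touch to the left of tickled in most members of each.

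**Figure D3:**
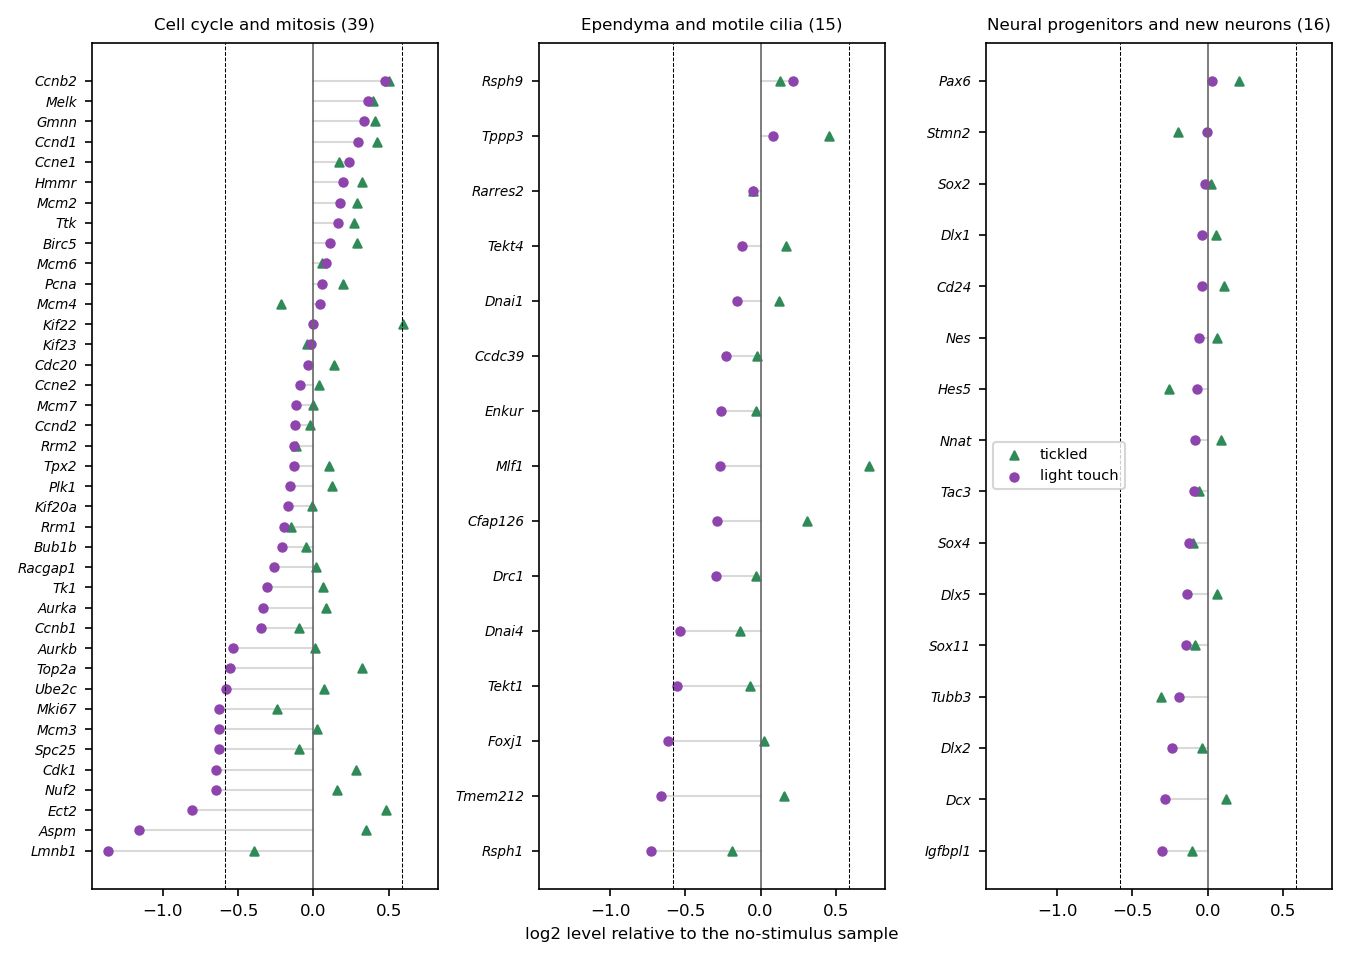
Every valued member of 3 lists is shown with its log2 level relative to no stimulus (vertical line at 0). Green triangles give the tickled sample, from 1 array. Purple points give the light-touch sample, as the difference of both striatal arrays. Dashed lines mark 1.5-fold; 8 of 39 cell cycle genes, 3 of 15 cilia genes and 0 of 16 progenitor genes lie beyond the lower line with light touch.

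Neuronal markers of striatum were close to no stimulus. Of 30 medium spiny neuron genes 0 passed 1.5-fold, 22 were below 0 and 8 above, and the median was -0.07. Ppp1r1b (DARPP-32, the phosphoprotein through which dopamine acts in these cells) was at -0.27 and Drd1, the D1 dopamine receptor, at -0.26, while Penk (enkephalin) was at 0.02 and Tac1 (substance P) at 0.09. Interneuron markers had a median of -0.07, with the cholinergic pair Slc5a7 and Slc18a3 at -0.26 and -0.24 and Pvalb (parvalbumin) at 0.28.

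By the list's median, cortical glutamatergic markers separated the tickled sample, not the light-touch one, but members were split. Their median was -0.36 for tickled over no stimulus and -0.40 for tickled over light touch. It was 0.04 for light touch over no stimulus, with 12 of 21 above 0. Several members were above 0 with tickling, among them Bhlhe22 at 0.20, Rorb and Ccn2 at 0.19 each and Emx2 at 0.14. Slc17a7, which loads glutamate into synaptic vesicles of cortical neurons, was at -1.20 with tickling and -0.07 with light touch. Bdnf (brain-derived neurotrophic factor) was at -1.31 and -0.32, and Tbr1, a cortical transcription factor, at -1.26 and -0.31, the lowest light-touch values of the list. Vip, which is also on the interneuron list and so no marker of glutamatergic neurons alone, stood at -0.76 with tickling and 0.42 with light touch.

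Glial and vascular markers were shifted upward by small amounts, with 0 past 1.5-fold. Astrocyte markers had a median of 0.12, 16 of 23 above 0, with the glutamate transporter gene Slc1a2 at 0.40, S100b at 0.22 and Apoe at -0.29. Oligodendrocyte markers had a median of 0.10, 19 of 22 above 0, led by Cnp at 0.36 and Tf (transferrin) at 0.23. Microglial markers had a median of 0.06, 14 of 19 above 0, with Tyrobp and P2ry12 at 0.24 each; the oligodendrocyte and microglial medians turned to -0.10 and -0.20 once the other tissues' difference was subtracted. Endothelial and mural cell markers had a median of 0.12, 21 of 25 above 0, with Vwf and Itm2a at 0.32 each and Kdr, the VEGF receptor, at 0.30. All genes were above 0 in 43.8%.

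In the tickled sample the medians of these lists over no stimulus were 0.21 for astrocytes, 0.22 for oligodendrocytes, 0.12 for microglia and 0.11 for endothelium. Light touch thus lay between no stimulus and tickled for the first 3 lists. Sets of genes of the protein and energy machinery were also slightly higher with light touch. Cytosolic ribosomal protein genes had a median of 0.06, 43 of 55 above 0, with 1 past 1.5-fold, Rpl9 at 0.66, and Rps26 at 0.41 on 2 features. Genes of oxidative phosphorylation had a median of 0.06, 44 of 58 above 0, with Ndufc1 (complex I) highest at 0.51.

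The plot of all 44 lists shows these medians against that of all genes.

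**Figure D4:**
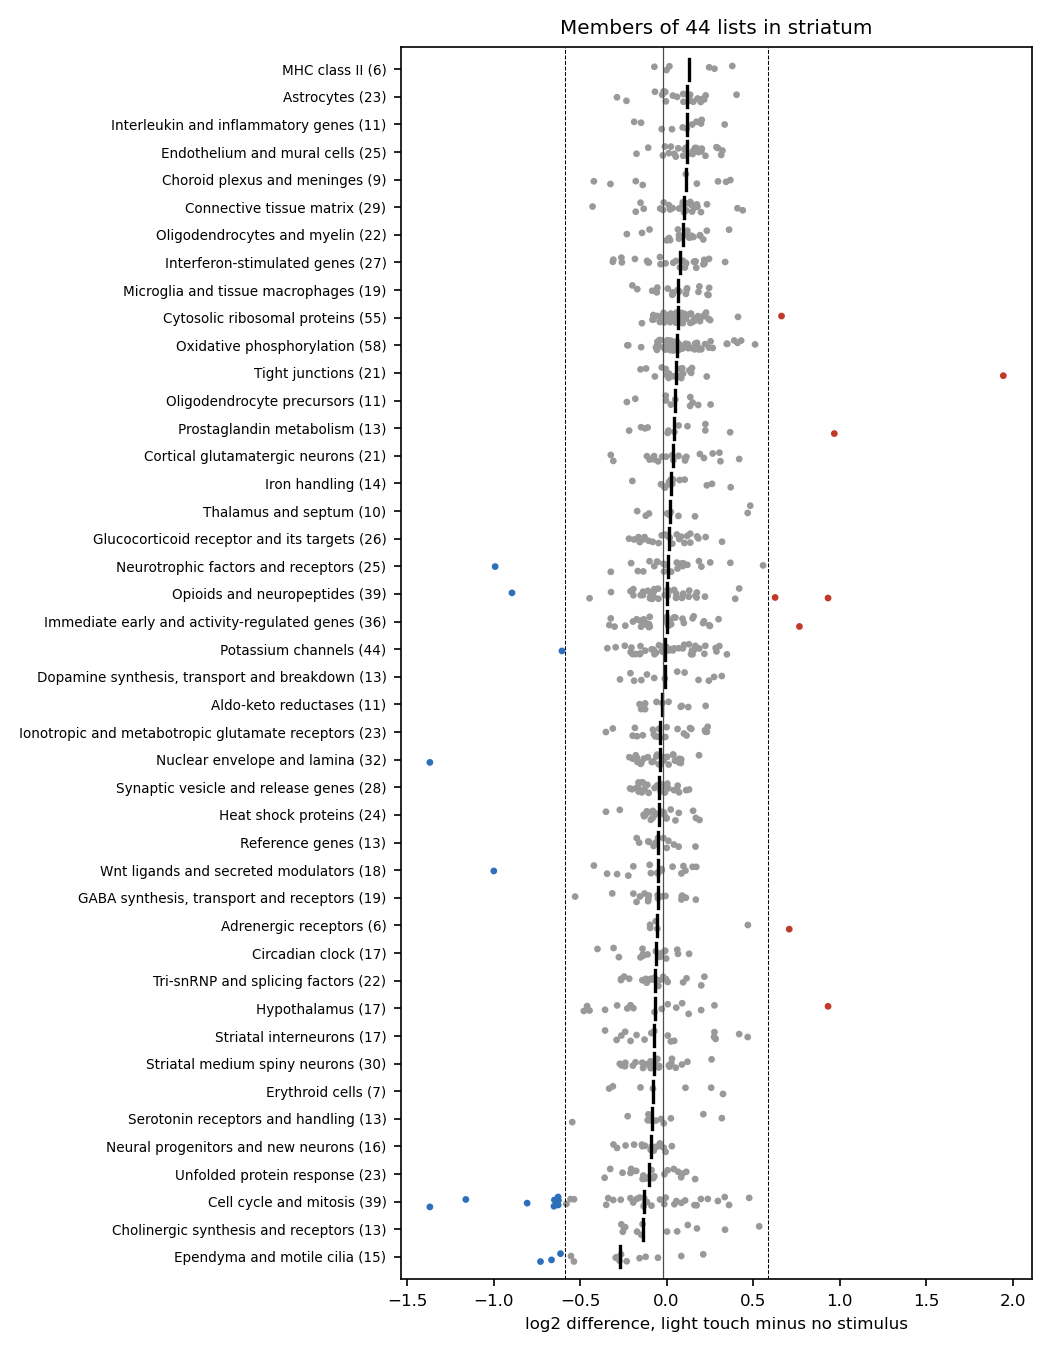
Each row is 1 of 44 gene lists with its number of valued members, each point 1 member's log2 difference between light touch and no stimulus in striatum and each thick bar the list's median; points are spread vertically by chance for visibility. Dashed lines mark 1.5-fold (red higher, blue lower) and the thin line the median of all genes, -0.02; the lowest median is that of ependyma and motile cilia, -0.27.

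Among transmitter systems, serotonin receptors and handling genes had a median of -0.09, 10 of 13 below 0, with Htr2c lowest, Htr5a at -0.22 and Htr1a at 0.32; the median turned to 0.17 once the other tissues' difference was subtracted. Dopamine genes had a median of -0.01 (0.06 with the arrays scaled to 1 spread), with Th (tyrosine hydroxylase) at 0.27 and 0.50 with tickling, and Drd3 at -0.15. Cholinergic genes had a median of -0.14, which scaling turned to 0.04, with Chrm1 at -0.25 and Chrnb4 at 0.54. Genes of GABA signalling had a median of -0.05 (0.12 with the other tissues' difference subtracted), with Gabrg3 at -0.53 and Gabra3 at -0.31, and glutamate receptors -0.04, with Grin3a at -0.35 and Grin2a at 0.24. The glutamate receptor median turned to 0.14 over genes with 2 or more features of 1 sign, and 6 of the 8 members with several features were above 0.

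Immediate early genes, which mark recent neuronal activity, were spread on both sides of 0. Of 36 valued members 20 were above 0 and 16 below, with a median of 0.0043, and Klf4 alone was past 1.5-fold. Fos was at -0.30, Junb at -0.33 and Arc at 0.25, so well-known members pointed in different directions. Glucocorticoid receptor targets, which follow stress hormone, had a median of 0.01 (-0.01 with the arrays scaled), 15 of 26 above 0, with Hsd11b1 at 0.32 and Per1 at -0.13.

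Opioid and neuropeptide genes had 39 valued members, 20 above 0 and 19 below. Oxt and Ghrl (ghrelin, 0.63 with light touch and 1.06 with tickling) were 1.5-fold or more higher and Galr2 lower, beside 0.925% of all genes past 1.5-fold either way, and in all 3 the tickled sample lay nearer light touch. The galanin gene Gal itself was at -0.45 with light touch and 0.33 with tickling. Among growth factor genes Cntfr was the only 1 of 25 past 1.5-fold, beside the same 0.925%, and Ret, the receptor of GDNF family ligands, was at 0.56 with light touch and 0.83 with tickling.

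Over all genes, differences between light touch and no stimulus in striatum had little in common with those in the other tissues. The cell cycle list was lower in both striatum and salivary glands, with a salivary median of -0.33 and 49 of 53 below 0. Across 9422 genes valued in both, Pearson's r between striatum and salivary glands was 0.076, and across 5537 genes between striatum and leukocytes -0.0056; genes are not independent replicates. Of the 99 genes 58 had a salivary value, 35 of them of the same sign, 3 past 1.5-fold the same way (Oxt, Slc44a4 and Septin10) and 1 the other way. Of 12 with a leukocyte value 7 had the same sign, 1 was past 1.5-fold the same way (Klf4 at 0.60) and 1 the other way.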

How the data were processed

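Each feature has 1 log2 ratio per array, which the authors deposited; the dyes in the labels make it tickled over comparator. Agilent Feature Extraction 9.1 is named in the submitters' processing notes, and the sources used here do not give the normalization, the log base or the rule for blank values. Features were named through the platform annotation, with symbols updated by Entrez identifier against RefSeq (GRCr8): 23535 features had 1 symbol, 48 several and 20707 none, 23488 matched and 1 symbol was updated.

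The difference of both arrays was taken per feature and the median per gene with Python 3.11.15, pandas 2.3.3 and numpy 2.4.6. The steps were tested on simulated data. With 1 array per comparator there is no p-value and no SD between samples, and the precision is limited by the number of arrays.

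Named genes were the 15 furthest each way, leaving out locus numbers, model clones and olfactory receptors, and needing features of 1 sign; the 10 each way with 2 or more features whose feature nearest 0 was largest; list members past 1.5-fold, otherwise up to 4 per list; and members on whose role the text turns. Or6c6i, Ptprh, Wdr19, Ptp4a3, Ube2c, Ccnb2, Melk, Gmnn and those of the closing part were named after their values were seen. The comparison, the 14 cell type lists, the 30 gene lists and the rules were chosen with earlier results of these data known. Effects of 8 other ways of processing, and of 1 chosen after seeing the data, are given at the end.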

Additional observations from a re-analysis of the deposited data

Results flagged for a closer look

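Kcnj16, a gene of an inwardly rectifying potassium channel, was 1.5-fold or more lower with light touch in striatum (-0.60) and higher in salivary glands (0.76), each on 1 array per comparator. Thg1l, a tRNA guanylyltransferase gene, was higher in striatum (0.61) and lower in leukocytes (-0.82). Neither difference between tissues was tested. Features without 1 gene symbol stand outside the gene comparison: 10536 had a value on both striatal arrays, 7 were 2-fold or more higher with light touch and 7 were 2-fold or more lower. The largest of them stood at 3.14, with 0.73 for tickled over no stimulus and -2.41 for tickled over light touch.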

How the results depend on the processing

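No paired analysis was possible because each comparator has 1 array. Averaging the features of a gene, taking the median per array first and centring the arrays kept all 44 list medians and the counts of genes near their values. Taking the feature of a gene nearest 0, 32 genes were 1.5-fold higher and 63 lower, 29 of 203 named genes moved, 7 of 203 changed sign, and 3 list medians changed sign (adrenergic receptors to 0.03, opioids and neuropeptides to -0.01 and glucocorticoid targets to -0.0026). Using 2 or more features of 1 sign (1945 genes), 4 genes were 1.5-fold higher and 1 lower, 1 was 2-fold higher and 0 lower, 2, 2 and 1 had tickled nearer light touch, nearer no stimulus and between, and 0 cell cycle and 0 cilia genes were lower; fewer genes enter here. With the arrays scaled to 1 spread, 5 and 9 genes were 2-fold higher and lower, 11 had tickled nearer light touch and 89 nearer no stimulus, and 6 cilia genes were lower. With the other tissues' difference subtracted (9480 genes), 226 and 239 were 1.5-fold and 61 and 37 were 2-fold higher and lower, 4 cell cycle genes and 1 cilia gene were lower, Oxt turned to -0.38 and Slc44a4 to 0.60, by the size of their values in salivary glands; the hypothalamic median turned to 0.02 and that of immediate early genes to -0.13. Read as natural logs, 112 and 218 genes were 1.5-fold and 16 and 31 were 2-fold higher and lower, tickled lay nearer light touch in 121, nearer no stimulus in 97 and between in 112, and 5 cilia genes were lower. Over the 9480 genes valued in another tissue, an alternative chosen after seeing the data, 35 genes were lower, tickled lay nearer light touch in 17, nearer no stimulus in 20 and between in 22, and 0 cilia genes were lower. The sign of a list's median changed in 10 of 44 lists with scaling and in 17 with the other tissues subtracted. Signal over background was not available for any feature, so dim genes were not set apart.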

Other observations

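Genes of protein folding in the endoplasmic reticulum lay below no stimulus by small amounts with light touch, 16 of 23 with a median of -0.10, led by Creld2 at -0.36, Dnajb11 at -0.33 and Pdia4 at -0.25; the chaperone gene Hspa5 (BiP) stood at -0.19 with light touch and -0.51 with tickling. Clock genes were below 0 in 14 of 17, with a median of -0.06; Per2 was at -0.40, Nr1d2 at -0.31 and Cry2 at -0.28, and Bmal1, which cycles against the Per genes, was at 0.13. Genes of the connective tissue matrix were above 0 in 22 of 29, with a median of 0.10, Col5a1 at 0.44, Mmp14 at 0.41 and Tnc at -0.43. Their medians kept their sign with the arrays scaled to 1 spread.

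Olfactory receptor genes had 154 members with a value in striatum, of which 4 were 1.5-fold or more higher with light touch and 5 lower, beside 0.327% and 0.598% of all genes. The furthest was Or6c6i at 1.83, with 0.24 for tickled over no stimulus and -1.58 for tickled over light touch. Receptors and channels among the lower genes included P2rx7 and P2rx3, ATP-gated channels, at -0.74 and -0.72, and the orphan receptor gene Gpr101 at -0.72, each on 1 feature.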
